A study of Mus musculus with 32 samples.

Results

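The nuclear-encoded subunits of the respiratory chain and the ATP synthase were followed in hippocampal RNA of 8 inbred mouse strains. Members were all probe sets whose single gene symbol in the array's annotation begins with Nduf, Uqcr, Cox4, Cox5, Cox6, Cox7, Cox8 or Atp5, or is Sdha, Sdhb, Sdhc or Sdhd. The rule used names and no measured value. It found 98 of 12422 non-control probe sets, for 71 genes. Of these, 38 probe sets belong to complex I, 4 to its assembly factors Ndufaf1 and Ndufaf4, 4 to complex II, 7 to complex III, 23 to complex IV and 22 to the ATP synthase. The strains were C57BL/6J, BALB/cByJ, DBA/2J, SJL/J, A/J, FVB/NJ, C3H/HeJ and _129S1/SvImJ_, all untreated, and the question is which transcripts differ between them. Each strain was 1 pool of RNA from 6 mice and 1 cDNA, from which cRNA was made in 2 preparations, each hybridised to 2 arrays (32 arrays in all). Replicates of a strain are therefore technical, and p-values measure the spread between preparations and not between animals. The sources used here do not give age or sex.

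The respiratory chain passes electrons from NADH (complex I) and succinate (complex II) through ubiquinone, complex III and cytochrome c to oxygen at complex IV. Complexes I, III and IV pump protons across the mitochondrial inner membrane, and the ATP synthase uses the returning protons to make ATP. Neurons depend on this process to power ion pumping and synaptic transmission. Most subunits are encoded in the nucleus, while a few core subunits of each proton pump and of the ATP synthase come from mitochondrial DNA and are outside the rule.

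Promoter windows of 300 bases, from 250 before to 50 after the start of the RefSeq gene model (GRCm38.p6), were found for 58 of the 71 genes, as 63 windows. They are shown for 5 complex I genes that were low in BALB/cByJ, so that the letters around their starts can be compared: Ndufa7 (chr17:33824395-33824694, plus strand, the downstream of 2 windows, the other holding no match), Ndufa9 (chr6:126849095-126849394, minus strand), Ndufc1 (chr3:51408906-51409205, minus strand), Ndufab1 (chr7:122101799-122102098, minus strand) and Ndufv2 (chr17:66101510-66101809, minus strand). Capitals mark matches, on either strand, to any of 6 motifs: NRF1 (a palindrome that is named only), ETS or GABP (CCGGAAG), YY1 (AANATGGCG), ERR (TNAAGGTCA), SP1 (GGGCGG) and the CCAAT box (CCAAT).
Ndufa7: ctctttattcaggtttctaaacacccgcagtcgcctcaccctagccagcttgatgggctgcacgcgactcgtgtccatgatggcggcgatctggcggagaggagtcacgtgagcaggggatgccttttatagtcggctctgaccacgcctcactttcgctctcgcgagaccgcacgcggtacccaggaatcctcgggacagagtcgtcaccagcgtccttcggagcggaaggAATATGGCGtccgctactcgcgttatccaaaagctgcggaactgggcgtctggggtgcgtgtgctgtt
Ndufa9: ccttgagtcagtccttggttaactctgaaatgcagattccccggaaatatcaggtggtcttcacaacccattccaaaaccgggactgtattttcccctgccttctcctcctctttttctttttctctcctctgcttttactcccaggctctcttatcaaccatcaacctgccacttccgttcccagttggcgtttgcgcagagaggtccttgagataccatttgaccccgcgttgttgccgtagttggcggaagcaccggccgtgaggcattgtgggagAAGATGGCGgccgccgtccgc
Ndufc1: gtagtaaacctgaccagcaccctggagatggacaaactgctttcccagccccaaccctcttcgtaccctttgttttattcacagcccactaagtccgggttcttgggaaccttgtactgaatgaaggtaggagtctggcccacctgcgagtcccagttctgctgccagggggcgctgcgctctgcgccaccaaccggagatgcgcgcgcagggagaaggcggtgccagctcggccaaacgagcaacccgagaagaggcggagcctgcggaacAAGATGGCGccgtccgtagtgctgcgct
Ndufab1: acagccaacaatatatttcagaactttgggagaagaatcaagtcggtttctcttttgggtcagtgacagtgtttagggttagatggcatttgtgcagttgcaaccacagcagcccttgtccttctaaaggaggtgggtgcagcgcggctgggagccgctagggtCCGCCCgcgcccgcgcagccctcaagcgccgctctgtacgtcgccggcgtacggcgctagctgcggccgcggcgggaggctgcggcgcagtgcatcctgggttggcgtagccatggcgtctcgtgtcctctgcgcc
Ndufv2: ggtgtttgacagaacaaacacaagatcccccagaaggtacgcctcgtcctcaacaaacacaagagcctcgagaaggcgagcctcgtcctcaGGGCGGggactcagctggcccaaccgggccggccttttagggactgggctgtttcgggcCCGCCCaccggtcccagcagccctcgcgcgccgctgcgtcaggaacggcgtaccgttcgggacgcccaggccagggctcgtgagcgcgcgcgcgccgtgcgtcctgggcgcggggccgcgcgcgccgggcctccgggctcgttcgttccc

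In the windows of Ndufa7, Ndufa9 and Ndufc1 the capitals are 1 YY1 match, on the strand of the gene and close to the start. The window of Ndufab1 holds 1 SP1 match and that of Ndufv2 holds 2, and no marked matches overlap. The YY1 letters were found in 5 of 28 windows of complex I genes (17.9%), namely those of Ndufa7, Ndufa9, Ndufb11, Ndufc1 and Ndufs4. They were found in 7 of all 63 member windows (11.1%) and in 2.38% of all 32851 windows of the table. NRF1 letters stood in 5 member windows (7.94% against 0.971%), those of Atp5g2, Atp5k, Cox6a1, Ndufaf4 and Uqcrc1. ETS letters stood in 16 (25.4% against 8.86%), ERR letters in 1, that of Sdhd (1.59% against 1.28%), SP1 letters in 29 (46% against 35.7%) and CCAAT in 25 (39.7% against 37.4%). Member windows had a median GC content of 58.67% against 52.67% for all windows, and base composition alone changes how often such letters occur. A match is a description of the letters and not of binding.

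Values below are log2 of the deposited signal, averaged over the 2 arrays of a preparation, with means and SDs over the 2 preparations of a strain (n = 2). The number of arrays limits their precision. A difference of 1 on this scale is 2-fold, and levels are compared only within a probe set. Tests covered the 7453 brightest probe sets, which kept 75 member probe sets of 65 genes. Across all arrays the median deposited signal lay between 29.4 and 43.65. Sense-strand control probe sets for actin and Gapdh stood high on 11 arrays, including all 4 of BALB/cByJ, with log2 signals of 6.95 to 7.84 against 4.91 to 5.64 on the other 21. Hippocampal neuron markers were all measured (10 on the array), with a summed log2 signal of 12.66 (DBA/2J) to 13.17 (A/J). In the same way astrocyte markers lay between 11.73 and 12.05, oligodendrocyte markers between 11.57 and 12.02, microglia markers between 9.87 and 10.36, choroid plexus markers between 8.85 and 9.99, erythroid markers between 9.55 and 10.64, and striated muscle markers between 7.98 and 8.22. In pooled tissue, fewer cells of a type and less RNA per cell cannot be told apart.

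Across the 8 strains, 7 member probe sets differed by limma's moderated F-test with Benjamini-Hochberg adjustment over all tested probe sets, 9.33% of the 75 tested members against 4.58% of all 7453 tested probe sets. They were Ndufa7, Ndufab1, Ndufc1 and Ndufv2 of complex I, Sdhc of complex II, Cox6c of complex IV and Atp5mpl of the ATP synthase. 0 of the 7 complex III probe sets and 0 of the 2 assembly factor probe sets passed in limma, with 4 and 0 at an unadjusted p under 0.05 (18 of all 75 members, 24% against 15.7%). Blocking on the preparation number gave 21 (28% against 18.9%), and it included all 7. The members' excess over the background depended on the processing. With arrays centred on their median 4 members passed (5.33% against 6.52%), without the variance trend 2 did (2.67% against 3.45%), and without preparation 2 of BALB/cByJ 3 did (4% against 3.97%). The members' strain means spanned a median range of 0.57, against 0.68 for all tested probe sets. A range of 1 or more was seen for 10 members (13.3% against 22.2%). Members were brighter than the tested probe sets as a whole, with a median log2 signal of 8.88 against 6.51. With only the brightest 40% tested, 11.3% of members passed the F-test against 6.64% of all.

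**Figure D1:**
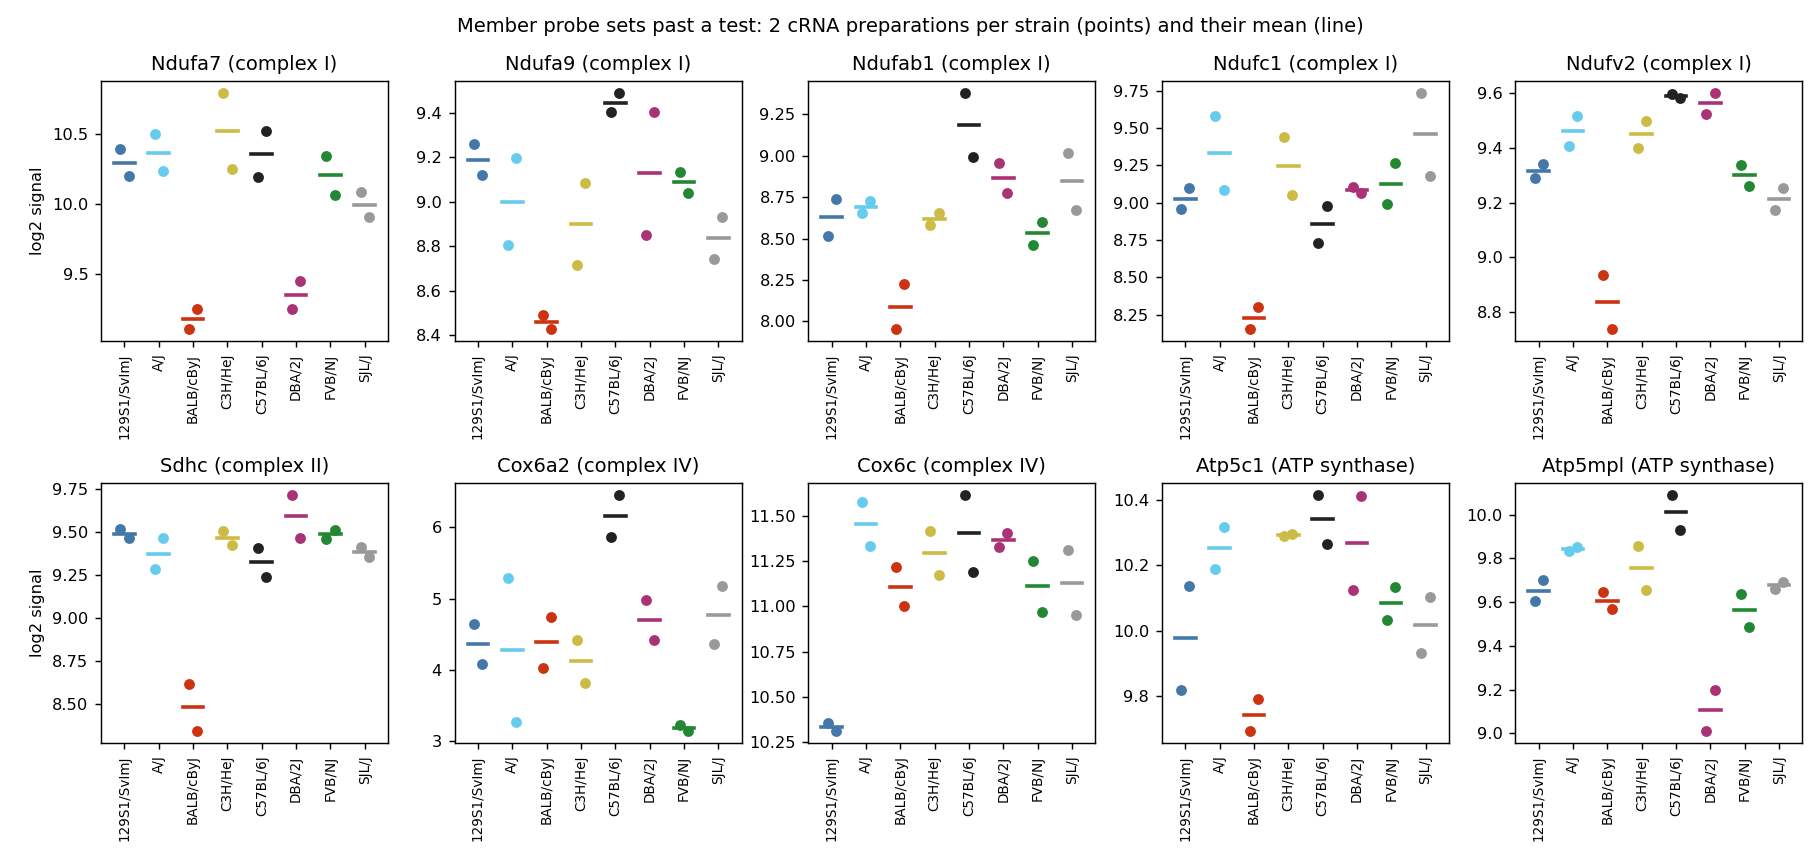
Log2 signal (vertical axis, cut to each panel's own range) of the 10 member probe sets past the F-test or a strain contrast, by strain. Points are the 2 cRNA preparations and lines their mean; BALB/cByJ is lowest for 7 of them, Cox6c is low in _129S1/SvImJ_, Atp5mpl in DBA/2J and Cox6a2 is high in C57BL/6J.

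Ndufa7, an accessory subunit of the peripheral arm of complex I, was low in 2 strains. Its preparations read 9.11 and 9.25 in BALB/cByJ and 9.25 and 9.45 in DBA/2J. The other strains gave 10.39 and 10.20 in _129S1/SvImJ_, 10.50 and 10.23 in A/J, 10.79 and 10.25 in C3H/HeJ, 10.20 and 10.52 in C57BL/6J, 10.35 and 10.06 in FVB/NJ, and 10.08 and 9.91 in SJL/J. The 2 low strains lay below all preparations of the other 6, and next to each other. BALB/cByJ was lower than the mean of the other 7 strains by 1.97-fold (difference -0.98, SE 0.14, adjusted p = 0.00209, limma contrast). DBA/2J was lower by 1.72-fold (difference -0.78, SE 0.14, adjusted p = 0.0119, limma contrast). The F-test across strains gave an adjusted p of 0.00212 (limma) and passed in all 61 alternatives, with a highest adjusted p of 0.0426. The DBA/2J contrast missed the threshold without preparation 1 (adjusted p = 0.388) or preparation 2 (adjusted p = 0.0886) of that strain.

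Ndufc1, an accessory subunit of the membrane arm of complex I, read 8.15 and 8.30 in BALB/cByJ. All 14 preparations of the other strains lay between 8.73 and 9.73, with C57BL/6J next lowest (mean 8.85 ± 0.17, SD, n = 2) and SJL/J highest (9.46 ± 0.39, SD, n = 2). The groups did not overlap, and BALB/cByJ was 1.91-fold lower than the others (difference -0.93, SE 0.16, adjusted p = 0.00502, limma). This contrast was lost without preparation 1 of BALB/cByJ (adjusted p = 0.0895). The F-test (adjusted p = 0.0392, limma) was past the threshold in 40 of 61 alternatives. It was lost without either preparation of BALB/cByJ, _129S1/SvImJ_, C57BL/6J, DBA/2J or FVB/NJ, with adjusted p from 0.0529 to 0.272. It was also lost without A/J array 3, BALB/cByJ array 2 or 3, C3H/HeJ array 2, C57BL/6J array 1, FVB/NJ array 2 or SJL/J array 1, from 0.0504 to 0.249.

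Ndufab1, the mitochondrial acyl carrier protein that is also a complex I subunit, read 7.95 and 8.22 in BALB/cByJ and 9.38 and 8.99 in C57BL/6J. The remaining 6 strains had means from 8.53 in FVB/NJ to 8.86 in DBA/2J. Ndufab1 was thus at its lowest in BALB/cByJ and at its highest in C57BL/6J, although the second C57BL/6J preparation lay inside the range of SJL/J (9.02 and 8.67). BALB/cByJ was 1.6-fold lower than the others (difference -0.68, SE 0.13, adjusted p = 0.00939, limma), and C57BL/6J 1.49-fold higher (difference 0.58, SE 0.13, adjusted p = 0.0339, limma). The F-test gave an adjusted p of 0.0367 (limma). It passed in 38 of 61 alternatives, and it was lost without BALB/cByJ array 3, C3H/HeJ array 2, C57BL/6J array 1 or 4, DBA/2J array 1, FVB/NJ array 2 or SJL/J array 1. It was also lost without either preparation of A/J, BALB/cByJ, DBA/2J or FVB/NJ and without preparation 1 of C3H/HeJ or C57BL/6J, with adjusted p up to 0.186 over all these libraries. The BALB/cByJ contrast was lost only without preparation 1 of that strain among all alternatives (adjusted p = 0.171). The C57BL/6J contrast passed in 45 of 61 alternatives, and its adjusted p was 0.647 without preparation 1 of C57BL/6J and 0.195 without array 1 of SJL/J.

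Ndufv2 carries an iron-sulfur cluster in the NADH-binding module of complex I. Its probe set 94062_at read 8.94 and 8.74 in BALB/cByJ, below the 9.17 to 9.60 of the 14 other preparations. The difference was -0.58 (SE 0.10, 1.49-fold lower, adjusted p = 0.00402, limma), and it was past the threshold in all 59 alternatives that kept BALB/cByJ. The F-test (adjusted p = 0.0226, limma) was lost without BALB/cByJ array 2 (adjusted p = 0.191) or array 3 (0.148), C57BL/6J array 1 (0.11) or preparation 2 of BALB/cByJ (0.14). It was also lost without either preparation of C57BL/6J, DBA/2J or FVB/NJ (adjusted p from 0.0511 to 0.0621). This F-test passed in 46 of 61 alternatives. It was lost after quantile normalization (adjusted p = 0.0528, limma), without the variance trend (0.129), with a random block (0.0786) and without BALB/cByJ (0.52). A second Ndufv2 probe set, 162327_f_at, had its highest mean in BALB/cByJ (6.25) and its lowest in C57BL/6J (5.78), the reverse order, and did not pass (adjusted p = 0.85, limma).

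Ndufa9, an accessory subunit at the ubiquinone-binding region of complex I, did not pass the F-test (adjusted p = 0.117, limma) but passed the BALB/cByJ contrast. It read 8.49 and 8.43 there, below the 8.71 to 9.49 of the others, a difference of -0.63 (SE 0.15, 1.54-fold lower, adjusted p = 0.0214, limma). Without BALB/cByJ array 2 or 3 the adjusted p was 0.0869 or 0.0548, and without its preparation 1 or 2 it was 0.154 or 0.11. C57BL/6J had the highest mean (9.45 ± 0.06, SD, n = 2). Of the other complex I members on the list of core and isoform genes, Ndufs1 (strain means 8.45 to 8.79) carries iron-sulfur clusters, Ndufs3 (9.25 to 9.74) is a core subunit without one, and Ndufv1 (10.37 to 10.79) holds the flavin that accepts electrons from NADH. None of these passed (adjusted p = 0.72, 0.617 and 0.381, limma). Ndufv1 had its highest mean in BALB/cByJ, whereas Ndufs1 and Ndufs3 had their lowest there. Among tested probe sets of complex I the widest range was that of Ndufa1 on the low-signal probe set 98117_at, from 3.33 in DBA/2J to 5.21 in SJL/J (adjusted p = 0.188, limma), which entered the tests only through SJL/J (mean of the others 4.35). The narrowest was that of Ndufb5, from 10.60 to 10.78.

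Complex II oxidises succinate and also belongs to the citrate cycle. Sdhc, 1 of its membrane anchors, read 8.61 and 8.34 in BALB/cByJ. The other 14 preparations ran from 9.24 to 9.72, with strain means between 9.32 in C57BL/6J and 9.59 in DBA/2J. BALB/cByJ stood alone and did not overlap any other strain, with a 1.95-fold lower signal (difference -0.96, SE 0.11, adjusted p = 0.000279, limma). That contrast passed in all 59 alternatives that kept the strain. The F-test gave an adjusted p of 0.00344 (limma), 0.0705 without preparation 2 of BALB/cByJ, and 0.9998 without the strain. The other anchor, Sdhd, was also lowest in BALB/cByJ (8.29 ± 0.37, SD, n = 2), but _129S1/SvImJ_ was close (8.42), and neither the contrast (adjusted p = 0.197, limma) nor the F-test (0.605) passed. With the preparation block the contrast passed (adjusted p = 0.00926, limma), as did the F-test (0.0166). The catalytic subunits Sdha (7.23 to 7.64) and Sdhb (9.14 to 9.67) did not pass (adjusted p = 0.736 and 0.165, limma), but with the block Sdhb passed the F-test (adjusted p = 0.0272) and 3 of the 4 members did in all. BALB/cByJ had the lowest mean for 3 of the 4 complex II members, whereas Sdhb was lowest in FVB/NJ (9.14) and read 9.32 in BALB/cByJ. The 4 lay below the mean of the other 7 strains there, Sdhb with a difference of -0.05, with a median difference of -0.37.

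Complex III hands electrons from ubiquinol to cytochrome c, and its members did not pass the F-test. The widest tested range was that of Uqcr11, a small accessory subunit, from 9.09 in BALB/cByJ to 10.02 in A/J (adjusted p = 0.0782, limma; 0.0193 with the preparation block). Uqcr10 ran from 9.06 in BALB/cByJ to 9.80 in C3H/HeJ (adjusted p = 0.124, limma; 0.0271 with the block). Uqcrc2, a core protein, had its lowest mean in C57BL/6J, where it read 9.33 and 9.27 and lay below all other preparations (adjusted p of the F-test = 0.266, limma; 0.0162 with the block). Both C57BL/6J preparations lay below all 14 others for 1.33% of members, against 2.6% of all tested probe sets. Uqcrc1, the partner of Uqcrc2, varied little (9.76 to 10.04), as did Uqcrb (8.09 to 8.36), and Uqcrh ran from 9.47 in _129S1/SvImJ_ to 9.99 in C57BL/6J.

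Complex IV, cytochrome c oxidase, has nuclear subunits with tissue-specific forms. Cox6c, a subunit with a single form, read 10.36 and 10.31 in _129S1/SvImJ_ on probe set 100550_f_at. The other strains lay between 10.95 and 11.62 without overlap, and _129S1/SvImJ_ was 1.91-fold lower (difference -0.93, SE 0.14, adjusted p = 0.00324, limma). The contrast was lost without either preparation of _129S1/SvImJ_ (adjusted p = 0.0867 and 0.087) and when each array was set to a common median (0.0719). The F-test (adjusted p = 0.0202, limma) was lost without _129S1/SvImJ_ array 2 (0.0829), FVB/NJ array 2 (0.0533) or either preparation of _129S1/SvImJ_ (0.131 and 0.149). That F-test passed in 55 of 61 alternatives. It was also lost with arrays centred on their median (adjusted p = 0.136, limma) and without the variance trend (0.0937). The suffix f_at of this Cox6c probe set means that it may read more than 1 transcript, so its gene is uncertain. The same suffix is carried by the probe sets named here for Uqcrc2, Uqcrb, Cox6a1, Ndufb5, Atp5g2, Atp5md and Tomm70a, among others. The other 2 Cox6c probe sets were too dim to be tested.

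Cox6a2, the form of subunit 6a found in heart and skeletal muscle, read 5.86 and 6.46 in C57BL/6J. The other preparations lay between 3.15 and 5.29, with FVB/NJ lowest at 3.23 and 3.15. C57BL/6J did not overlap the others, with a difference of 1.90 (SE 0.43, 3.73-fold). The probe set entered the tests only through C57BL/6J, since the other 7 strains had a mean of 4.26 and the dimmest tested probe set one of 4.41. It therefore had to differ, and its contrast (adjusted p = 0.032, limma) is given as a description only. The F-test did not pass (adjusted p = 0.135, limma). The signal was low, and with an offset of 64 added before the logarithm the difference was 0.66. The contrast was lost without either preparation of C57BL/6J (adjusted p = 0.22 and 0.307). It was also lost without _129S1/SvImJ_ array 1, BALB/cByJ array 4, C3H/HeJ array 1, DBA/2J array 1, DBA/2J preparation 2 or either FVB/NJ preparation (0.0539 to 0.0946). Of 12 striated muscle markers on the array, 5 were bright enough to be tested and none passed the F-test. Their summed level was 8.15 in C57BL/6J, inside the range of the other strains. Of the 5, Ckm and Acta1 had their lowest means there (4.61 and 4.95), Myh4 had its highest (5.40), and Actc1 and Myh7 had neither. The part of muscle tissue in the Cox6a2 signal was not tested.

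Cox6a1, the other form, was lowest in BALB/cByJ (11.01) and highest in C57BL/6J (11.58; adjusted p = 0.324, limma). Cox5b was lowest in FVB/NJ (9.64 ± 0.01, SD, n = 2) and highest in C57BL/6J (10.23), and did not pass (adjusted p = 0.282, limma). Cox7a2 had the narrowest range of the tested complex IV probe sets (10.47 to 10.75), and Cox4i1 on 102124_f_at ran from 5.999 in C3H/HeJ to 6.90 in BALB/cByJ (adjusted p = 0.68, limma). Cox8b ran from 5.83 to 6.47, and Cox5a, Cox7a1 and Cox8a were too dim to be tested.

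The ATP synthase couples a rotor in the membrane to a catalytic head. Atp5mpl, a small membrane subunit, read 9.01 and 9.20 in DBA/2J and 10.09 and 9.93 in C57BL/6J, and the 12 preparations of the other strains lay in between. Its F-test passed in 54 of 61 alternatives. It was lost with arrays centred on their median (adjusted p = 0.0536, limma) and without the variance trend (0.109). DBA/2J was lower than the others by 1.54-fold (difference -0.62, SE 0.10, adjusted p = 0.00384, limma), and this was lost only without its preparation 1 (adjusted p = 0.219). C57BL/6J was higher by 1.33-fold (difference 0.41, SE 0.10, adjusted p = 0.0494, limma), a call that held in 13 of 61 alternatives. Its adjusted p was above the threshold, from 0.0507 to 0.149, without most single arrays and preparations, and reached 0.619 without preparation 1 of C57BL/6J. The F-test gave an adjusted p of 0.0184 (limma), and it was 0.0962 without DBA/2J array 4, 0.0646 without preparation 1 of C57BL/6J, and 0.173 and 0.0671 without preparation 1 or 2 of DBA/2J.

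Atp5c1, the shaft that turns inside the head, passed the BALB/cByJ contrast on 1 of 2 probe sets. Neither 92799_g_at nor 92798_at passed the F-test (adjusted p = 0.174 and 0.772, limma). On 92799_g_at it read 9.69 and 9.79 in BALB/cByJ, below the 9.82 to 10.42 of the others, a difference of -0.44 (SE 0.11, 1.35-fold lower, adjusted p = 0.0319, limma). The contrast missed the threshold after quantile normalization (adjusted p = 0.054, limma) and without the variance trend (0.0686). Leaving out 1 library ended this call for BALB/cByJ array 2 (adjusted p = 0.11) or 4 (0.051), FVB/NJ array 2 (0.0545), either BALB/cByJ preparation (0.246 and 0.0912) and FVB/NJ preparation 2 (0.0569). The other probe set, 92798_at, was also lowest in BALB/cByJ (9.10) and did not pass (adjusted p of the contrast = 0.204, limma). Atp5a1, the catalytic-head alpha subunit, was lowest in BALB/cByJ (10.86) and highest in C57BL/6J (11.20; adjusted p = 0.859, limma). The ring subunit genes Atp5g1 (4.88 to 5.47) and Atp5g2 (6.66 to 7.18) did not pass, and Atp5j had the narrowest tested range (8.94 to 9.23).

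**Figure D2:**
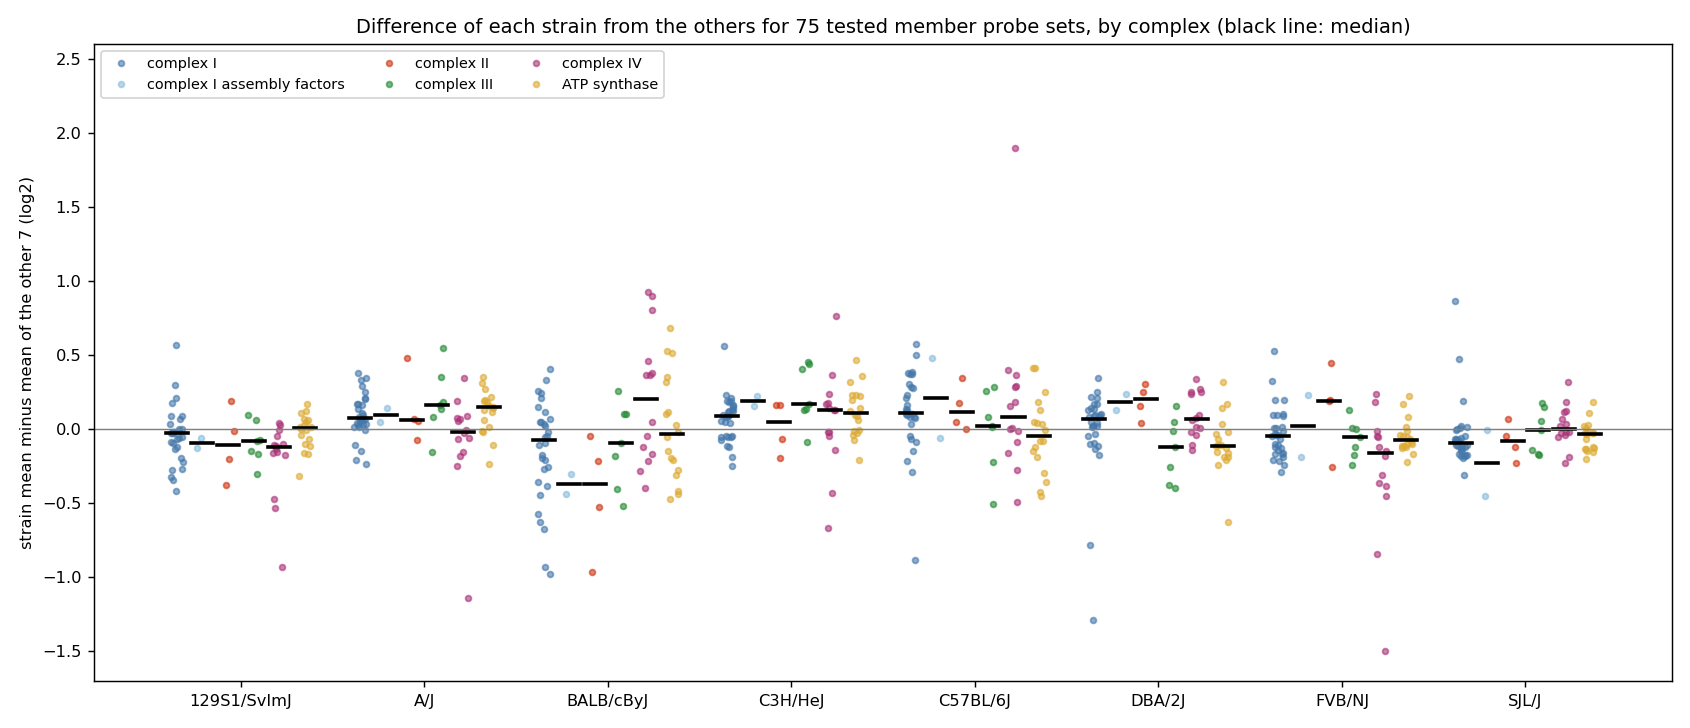
Difference of each strain's mean from the mean of the other 7 (log2, vertical axis) for the 75 tested member probe sets, coloured by complex, with the median of each complex as a black line. The medians lie between -0.37 and 0.21, the 4 complex II members of BALB/cByJ all lie below 0, and single probe sets such as Cox6a2 in C57BL/6J (1.90) lie far from their complex. The filter kept Cox6a2 only for its level in C57BL/6J.

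Over the 8 contrasts of a strain against the mean of the other 7, 13 of 600 member tests passed (2.17% against 1.93% of all tests). The 13 include Cox6a2 in C57BL/6J, a description only, and the share was near that of all tests even with it. Seen strain by strain, BALB/cByJ had 7 member calls, all lower: Ndufa7, Ndufa9, Ndufab1, Ndufc1, Ndufv2, Sdhc and Atp5c1. They are 9.33% of members, against 8.92% of all tested probe sets called in either direction and 5.81% called lower. With all arrays the members' share in either direction was thus near the background. Without preparation 1 of BALB/cByJ 4 members were called, all lower (5.33% against 1.57% in either direction), and without its preparation 2 there were 6 (8% against 4.49%). Without array 1 of that strain 12 members were called lower and 3 higher (20% against 16.1%), and without its array 4 there were 9 and 3 (16% against 11.8%). Leaving out array 1 of FVB/NJ gave 10 and 2 (16% against 12.3%), its array 2 gave 6 and 0 (8% against 4.07%), and preparation 1 of _129S1/SvImJ_ gave 11 and 0 (14.7% against 11.5%). C57BL/6J had 3 calls, all higher (Ndufab1, Cox6a2 and Atp5mpl; 4% against 2.28% in either direction and 0.912% higher), or 2 leaving aside Cox6a2, which the filter kept only for its level there. DBA/2J had 2, both lower (Ndufa7 and Atp5mpl; 2.67% against 1.44% in either direction and 0.953% lower), and _129S1/SvImJ_ had 1, lower (Cox6c; 1.33% against 0.751% in either direction and 0.403% lower). In A/J (0.537% of all), C3H/HeJ (0.577%), FVB/NJ (0.389%) and SJL/J (0.55%) limma called 0 members, while 7, 7, 4 and 3 had an unadjusted p under 0.05 (9.33%, 9.33%, 5.33% and 4% of members, against 5.57%, 6.74%, 5.41% and 5.46% of all). With the preparation block BALB/cByJ had 22 member calls, 16 lower (21.3% against 16.6%) and 6 higher (8% against 13.8%), or 29.3% against 30.4% in all. In that fit C57BL/6J had 7 (9.33% against 6.63%), 6 higher (8% against 3.02%) and Uqcrc2 lower (1.33% against 3.61%), DBA/2J had 3 (4% against 4.27%), C3H/HeJ had 1 (1.33% against 1.61%) and _129S1/SvImJ_ had 1 (1.33% against 1.84%).

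The 4 arrays of BALB/cByJ all carried the high sense-strand control signal, so this control and the strain cannot be told apart by leaving arrays out. It was also high in the first preparations of SJL/J, A/J and C3H/HeJ, and on 1 of 2 arrays of the first preparation of FVB/NJ (array 1). The control read 7.11, 7.46 and 7.01 in these preparations of SJL/J, A/J and C3H/HeJ, below the 7.74 and 7.70 of BALB/cByJ. No preparation of another strain thus matched BALB/cByJ in this control. In the 3 preparations with both arrays high Ndufa7 read 10.08 to 10.79, Sdhc 9.28 to 9.50, Ndufc1 9.44 to 9.73, Ndufv2 9.17 to 9.41, Ndufab1 8.58 to 9.02, Ndufa9 8.71 to 8.81 and Atp5c1 9.93 to 10.29. Each of these values lay above both BALB/cByJ preparations of the same probe set. For Ndufa9 all 3 also lay below every preparation of low control signal, the lowest of which was 8.85, and the part of this control in the Ndufa9 difference was not tested. Both BALB/cByJ preparations lay below all 14 others for 9 members (12% against 5.68%), which adds Ndufb11 and Atp5md to the 7 calls. They lay above all others for 4 (5.33% against 8.04%), Cox4i1 on 93788_at, Cox8c, Atp5d on 94279_at and Atp5pb. The other tested probe sets of Atp5d are brighter and did not share this. Of these, 161145_f_at had its lowest mean in BALB/cByJ, 161494_f_at its highest in C3H/HeJ and 162343_f_at its highest in A/J.

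The strain in which a member was highest was unevenly spread. C57BL/6J had the highest mean for 23 of 75 members (30.7% against 12.1% of all tested probe sets), 11 of them in complex I, 5 in the ATP synthase and 4 in complex IV. The 4 include Cox6a2, which the filter kept only for its level in C57BL/6J. Without preparation 1 of C57BL/6J the shares were 28% and 22.7%. The share was 22.7% against 14% after quantile normalization and 45.3% against 25.5% when each array was set to a common median. A/J was highest for 13 (17.3% against 8.77%), C3H/HeJ for 10 (13.3% against 8.56%) and _129S1/SvImJ_ for 1 (1.33% against 5.92%). BALB/cByJ was lowest for 29 members (38.7% against 27.5%) and highest for 17 (22.7% against 28.1%). The excess for the lowest mean was not seen without preparation 2 of BALB/cByJ (32% against 33%) or with the day as a term (26.7% for both), and without array 2 of that strain the shares were 28% and 26.3%. In C57BL/6J the summed astrocyte, oligodendrocyte and microglia markers were at their highest of the 8 strains and the choroid plexus markers at their lowest. The neuron sum was 12.80, with only DBA/2J lower. Such sums weigh the brightest markers most, and single markers differed. Among astrocyte markers only Aldoc was highest there and Slc1a2 was lowest (6.32). Among microglia markers C1qb, C1qc and Tyrobp were highest and Cx3cr1 lowest (6.82). The part of these cell types in the member values was not tested.

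**Figure D3:**
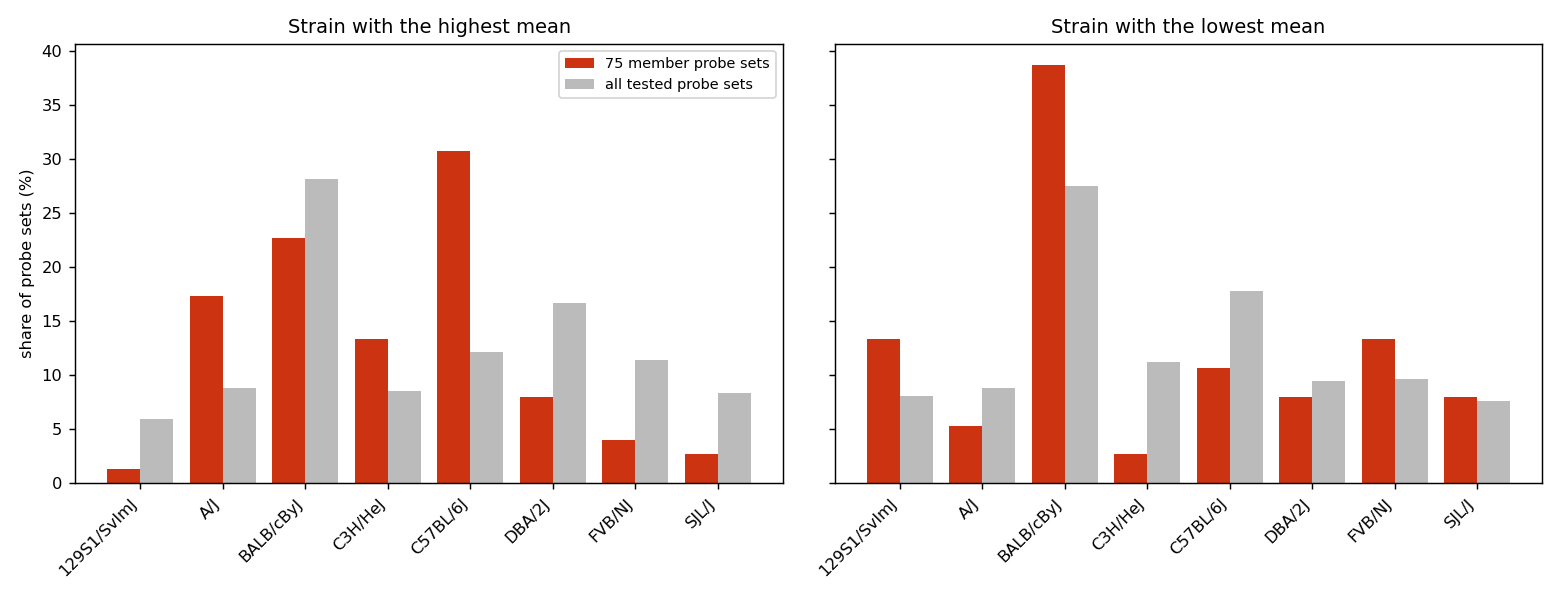
Share of probe sets (%) that had their highest mean (left) or lowest mean (right) in each strain, for the 75 tested members and for all 7453 tested probe sets. Members were highest in C57BL/6J in 30.7% against 12.1%, and lowest in BALB/cByJ in 38.7% against 27.5%.

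The pattern depended on how bright a member was. At a mean log2 signal of 8 or more, a split chosen after the values were seen, C57BL/6J was above the mean of the other 7 strains for 40 of 48 members (83.3% against 61.5% of all such probe sets) and highest for 21 (43.8% against 23.8%). Under 8 it was above that mean for 9 of 27 (33.3% against 42.1%). A/J was above the mean of its other 7 strains for 44 of the 48 bright members (91.7% against 55.5%). BALB/cByJ was lowest for 22 of the 48 (45.8% against 35.6%), and highest for 13 of the 27 dim ones (48.1% against 28.9%). _129S1/SvImJ_ lay below the mean of the rest for 37 of 48 (77.1% against 45.6%) and SJL/J for 35 (72.9% against 48.6%). The shifts were small: among bright members the medians were 0.13 in C57BL/6J, 0.10 in A/J, -0.07 in _129S1/SvImJ_ and -0.16 in BALB/cByJ. The corresponding medians of all bright probe sets were 0.06, 0.02, 0.01 and -0.07.

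**Figure D4:**
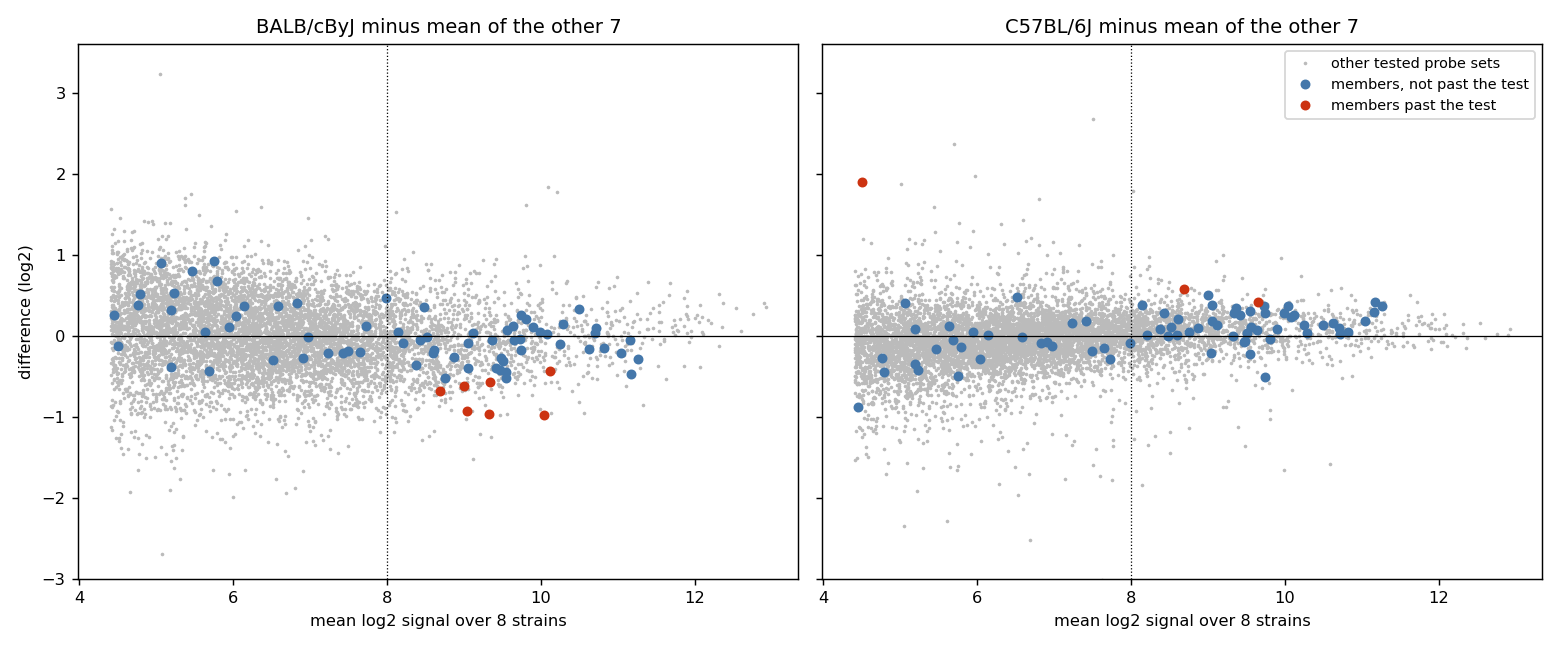
Difference of BALB/cByJ (left) and C57BL/6J (right) from the mean of the other 7 strains (log2, vertical) against mean log2 signal (horizontal) for members and all other tested probe sets; the dotted line marks 8. The 7 members past the BALB/cByJ test lie to the right of the line and below 0, and 40 of 48 members to the right of the line lie above 0 in C57BL/6J.

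By complex, the median difference in BALB/cByJ was -0.07 for complex I (18 of 30 members below 0), -0.09 for complex III (4 of 7), 0.20 for complex IV (6 of 14) and -0.03 for the ATP synthase (10 of 18). Complex IV members were dimmer, with a median log2 signal of 7.28 against 9.02 for complex I. BALB/cByJ was highest for 7 complex IV members, each with a mean under 8, and lowest for 4, each above 8. The complexes were not compared at equal signal. Over all tested probe sets the median was 0.00172 in that strain, with 50.2% above 0. It was -0.15 when arrays were centred on their median, so directions in BALB/cByJ are relative to the scaling. Counted in the same way against the mean of the other 7, FVB/NJ lay below for 12 of 14 complex IV members (median -0.16) and 14 of 18 ATP synthase members (-0.08). FVB/NJ lay above for 14.3% and 22.2% of these, against 53.4% of all tested probe sets. DBA/2J lay below for 14 of 18 ATP synthase members (-0.11) and above for 21 of 30 complex I members (0.07). The shares above were 22.2% and 70%, against 58.5% of all tested probe sets. In preparations 1 and 2 of DBA/2J the ATP synthase medians were -0.19 and 0.02, and the complex I medians -0.005 and 0.09. A/J lay above for 25 of 30 complex I members (0.07) and 6 of 7 complex III members (0.16), or 83.3% and 85.7% against 51.8%. The smallest called difference of a single member, that of Atp5mpl in C57BL/6J, was 0.41.

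Strain accounted for a median of 16.7% of the variance of a member probe set over the 32 arrays, against 6.73% for all tested probe sets. Members were the brighter set, and these shares were not compared at equal signal. The strain share was 33.7% in complex III, 32.2% in complex II, 15.8% in complex I, 14.3% in complex IV and 9.43% in the ATP synthase. The preparation within a strain took 21.8% in members and 20.9% in all. Over the 8 strain means, pairs of members had a median Pearson correlation of 0.146, and pairs within complex I 0.205, against 0.00544 for all pairs of tested probe sets. The correlations were not compared at equal signal either. All these points share the same arrays, and the values are a description.

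Of the member genes, several had more than 1 probe set, and these often did not rank the strains alike. Over the 8 strain means the correlation was 0.51 for the pair of Atp5c1, 0.46 for that of Cox4i1, 0.41 for that of Atp5g1 and 0.39 for the tested pair of Cox6b2. It was -0.36 for Ndufv2, -0.20 for Ndufa3 and -0.10 for the tested pair of Ndufb2. The 4 tested probe sets of Atp5d, the delta subunit of the central stalk, correlated from -0.10 to 0.71, and the 3 whose names end in f_at from 0.64 to 0.71. C57BL/6J lay below the mean of the other strains in all 4 of these.

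**Figure D5:**
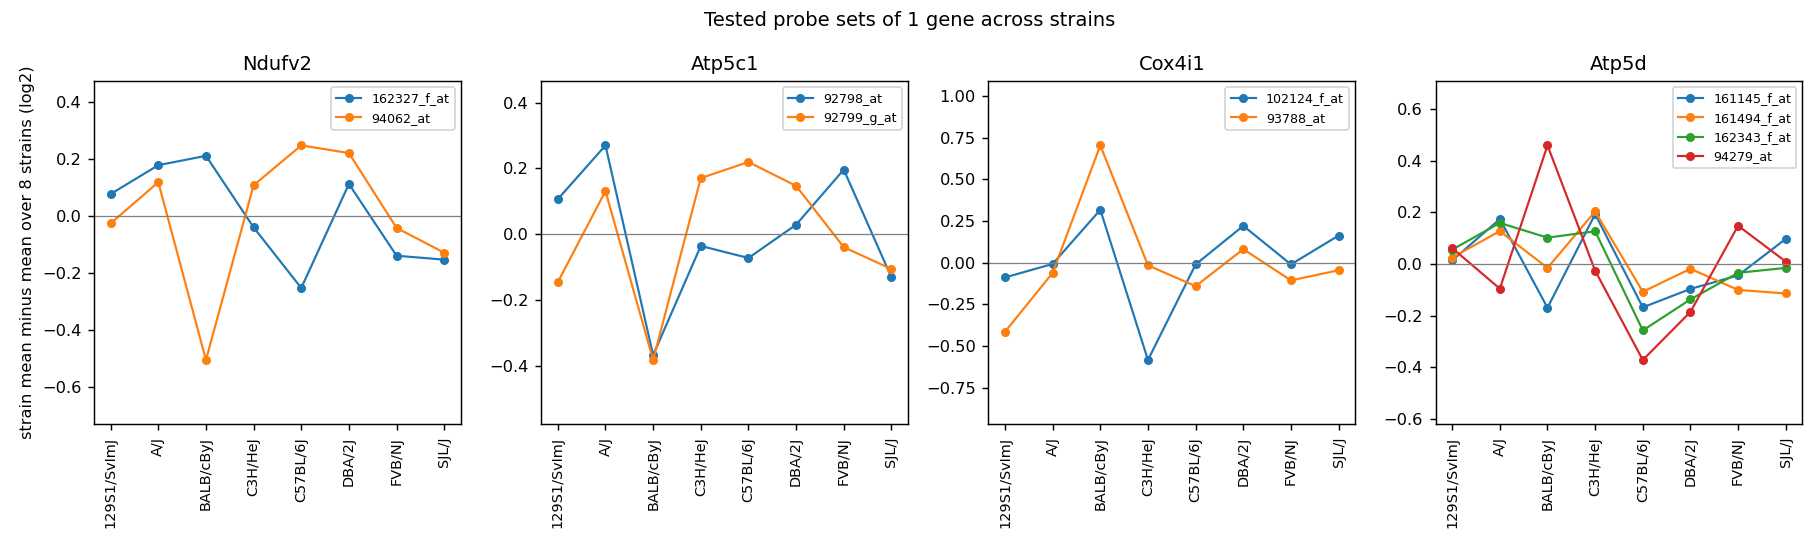
Strain means minus the mean over 8 strains (log2, vertical axis) for the tested probe sets of Ndufv2, Atp5c1, Cox4i1 and Atp5d, with lines joining the values of 1 probe set. The 2 Ndufv2 probe sets run in opposite directions in BALB/cByJ and C57BL/6J (correlation -0.36), while both Atp5c1 probe sets are lowest in BALB/cByJ (0.51).

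Other genes of the pathway were taken from 5 lists, with 1 probe set for each gene, and 75 of these were tested. Of them 7 passed the F-test (9.33% against 4.58% of all probe sets), and 19 with the preparation block (25.3% against 18.9%). Of 15 tested assembly factors 3 passed. Acad9, a complex I assembly factor, read 4.39 and 4.33 in FVB/NJ, where it was lower than in the others by 1.91 on the log2 scale (difference -1.91, SE 0.21, adjusted p = 0.000296, limma). Uqcc1, an assembly factor of complex III, read 4.23 and 5.74 in BALB/cByJ (difference -1.95, SE 0.275, adjusted p = 0.00148, limma). Cox18, which inserts a complex IV subunit into the membrane, was high in BALB/cByJ (8.54 ± 0.07, SD, n = 2; difference 0.63, adjusted p = 0.00883, limma).

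Of 13 tested electron carriers and feeders only Nnt passed. Nnt encodes the inner-membrane transhydrogenase, whose gene carries a known deletion in C57BL/6J. It was lowest in SJL/J (4.59 and 3.98; difference -1.49, SE 0.23, adjusted p = 0.00626, limma), and read 5.35 and 5.32 in C57BL/6J. Of 18 tested genes of the citrate cycle and pyruvate dehydrogenase 2 passed. Suclg1, a succinyl-CoA ligase subunit that acts just before complex II, was low in BALB/cByJ (7.45 and 7.49; difference -1.23, SE 0.12, adjusted p = 0.00011, limma). Pdhb, of pyruvate dehydrogenase, was low in _129S1/SvImJ_ (difference -1.02, SE 0.20, adjusted p = 0.0288, limma) and in BALB/cByJ (difference -0.69, SE 0.20, adjusted p = 0.0472, limma). Of 18 tested membrane carriers only Tomm70a, an import receptor, passed, again low in BALB/cByJ (difference -0.81, SE 0.13, adjusted p = 0.00354, limma). Of 11 tested regulators of mitochondrial gene expression 0 passed (limma), while 1 had an unadjusted p under 0.05. With the block 4 of the 11 passed: Ppargc1a, Tfb2m, Esrra and Yy1. For each of these short lists, the share of all tested probe sets was 4.58% in the main fit and 18.9% with the block.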

How the data were processed

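Hippocampal total RNA of 8 strains was measured on 32 Affymetrix U74Av2 arrays. The deposited values are linear signal intensities; per the submitters' processing notes, MAS5 made them. Titles also end in 1 of 6 days, and array 2 of FVB/NJ, labelled as first preparation, carries a day otherwise seen on second-preparation arrays. Both second-preparation arrays of BALB/cByJ carry days not seen on other second-preparation arrays, except array 4 of FVB/NJ, which shares 1 of them. Strain and day are thus partly tied in BALB/cByJ, which limits the preparation block and the fit with day as a term. The members and gene lists were chosen with earlier results of these data known.

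Here, signals under 1 were set to 1 (2.14% of values), log2 was taken, and the 2 arrays of a preparation were averaged, giving 16 values. The 66 control probe sets were left out, and the brightest 60% of the rest entered the tests (7453, lowest mean signal 21.3). Of all 12488 probe sets, 10855 had 1 gene symbol, 396 several, and 1193 non-control ones had none; all 98 members matched a RefSeq gene. limma 3.58.1 (R 4.3.3) fitted 8 strain means with a variance trend, an F-test and 8 contrasts of a strain against the mean of the other 7. p-values were adjusted by Benjamini-Hochberg over all tested probe sets, with a threshold of 0.05. The fit was tested on simulated data. Probe sets named are those past the F-test, the largest calls of each strain, listed core and isoform genes, genes with several probe sets, the widest and narrowest range in each complex, and pathway genes past the F-test. The remaining calls, Uqcr10, and the genes listed for preparations that did not overlap were named after their values were seen.

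The preparation number pairs samples, which the series' design text numbers alike across strains, and every pair of strains correlated above 0.1. Deviations of same-numbered preparations correlated at 0.109 to 0.557 over 28 pairs of strains (median 0.385), and at 0.109 to 0.244 for pairs with BALB/cByJ. Alternatives were quantile normalization, centring on array medians, other filters and offsets, the preparation number as a block, single arrays with and without the day or a random block, no variance trend, and leaving out strains, arrays or preparations.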

Additional observations from a re-analysis of the deposited data

Results flagged for a closer look

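Atp5mpl in C57BL/6J read 9.78 on array 4, apart from the other 3 arrays of that strain, which lay between 10.07 and 10.12 on the log2 scale. The gap was large for a group of 4 arrays. It was the only such case among 56 groups of 4 arrays examined (the 7 members past the F-test in each of the 8 strains), and chance alone flags about 1 group in 20.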

How the results depend on the processing

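Of 61 alternatives, 48 left out 1 array or 1 preparation. The members past the F-test (7) numbered 4 with arrays centred on their median (Ndufa7, Ndufa9, Ndufv2 and Sdhc; 5.33% against 6.52% of all probe sets), 21 with the preparation number as a replicate block, 25 with single arrays, 32 with the day as a term, 14 with a random block (correlation 0.271), 2 without the variance trend (2.67% against 3.45%), 3 without BALB/cByJ, and 3 without the arrays of high sense-strand control. The leave-out range was 3 to 8. The F-test shares were 28% of members against 18.9% of all probe sets with the block, and 33.3% against 18.6% with single arrays. They were 42.7% against 31.2% with the day and 18.7% against 8.95% with a random block. Without BALB/cByJ they were 4% against 3.3%. For the 8 contrasts together the share of all was computed only in the main fit, so the counts below are a description. Member calls over the 8 contrasts (13, Cox6a2 in C57BL/6J included) numbered 34 with the block, 42 with single arrays and 68 with the day. There were 22 with a random block, 4 without BALB/cByJ and 4 without the high-control arrays, and 9 to 20 over the leave-outs. Other pathway genes past the F-test (7) numbered 19, 18, 32, 12, 2 and 2 in the same order, 4 without the trend, and 5 to 8 over the leave-outs. The cause was not tested. No named member contrast changed sign in any alternative. Over all probe sets called in BALB/cByJ the share lower was 65.1%, and 92.6% with centring, while in C57BL/6J the share higher was 40% and 62%. The median of all probe sets in C57BL/6J was -0.03, and 0.10 with centring. With the day as a term, BALB/cByJ was lowest for 26.7% of members and 26.7% of all probe sets. With 2 preparations of 1 pool a strain, differences between animals could not be measured, and 23 member probe sets were too dim to be tested.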

Other observations

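The second preparation tended to read lower than the first for the subunits, while all tested probe sets moved the other way. The median change from the first to the second preparation over the 75 tested members was below 0 in 7 strains, from -0.13 in BALB/cByJ, where 53 members fell in value, to -0.004 in C57BL/6J, where 38 did. DBA/2J differed, with a median of 0.12 and 25 members lower. Over all tested probe sets the median was above 0 in each of the 8 strains, from 0.04 in FVB/NJ to 0.13 in SJL/J. Members were the brighter set, with a median log2 signal of 8.88 against 6.51. The changes were not compared at equal signal, and these values were not tested.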
